A study of Mus musculus with 8 samples.

Results

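Protein kinase C (PKC) isoforms were followed in PDGF-BB–treated MASMCs, smooth muscle cells cultured from the aortas of mice, because HINT1 was first described as a protein that binds PKC. The members were the rows of the count files named *Prkca*, *Prkcb*, *Prkcd*, *Prkce*, *Prkch*, *Prkci*, *Prkcq*, and *Prkcz*, and all 8 were found among 18533 gene symbols. The samples were MASMCs from WT mice (n = 4) and from *Hint1*-/- mice (n = 4), and both genotypes received PDGF-BB at 20 ng/mL for 24 hours, so no untreated cells enter the comparison. The study's methods describe male donors of a few weeks of age and a mutation carried by the whole animal. They do not say whether the 4 samples of a genotype came from separate mice, so p-values measure only the spread between the deposited samples. The libraries held 20778077 to 20888041 estimated counts, and 7 of the 8 PKC genes passed edgeR's filter on low counts.

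PKCs are serine/threonine kinases that sit downstream of receptors coupled to phospholipase C. The conventional isoforms (such as PKCα and PKCβ) respond to calcium and diacylglycerol, the nPKC isoforms (PKCδ, PKCε, PKCη, and PKCθ) respond to diacylglycerol without calcium, and the atypical isoforms (PKCι and PKCζ) respond to neither and work with polarity proteins. In vascular smooth muscle, PKC activity promotes contraction through the phosphatase inhibitor CPI-17, and growth factors such as PDGF reach PKC through phospholipase Cγ. Kinase activity, phosphorylation, and protein abundance were not measured here, and all values below are mRNA levels.

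The 5 PKC genes with more than 200 counts in every sample had fitted differences between −9.6% (*Prkch*) and 12.2% (*Prkca*) in *Hint1*-/- against WT MASMCs, whereas the intervals of *Prkcb*, *Prkcz*, and *Prkcq*, which had few counts, were wide. Of the 7 PKC genes tested, *Prkca* was higher and *Prkcd* was lower in *Hint1*-/- MASMCs at an adjusted p under 0.05, by 12.2% and 7.19%. The other 5 did not pass the test, and no PKC gene was past the study's fold limit of 1.5. Across all 13535 genes tested, 21.5% passed on the adjusted p and 2.83% passed both limits, with 11.2% higher and 10.2% lower. Passing 2 of 7 is therefore close to the background. The median log2 fold change was 0.03 over the 7 PKC genes and 0.00 over all genes tested. *Hint1* itself had 2272 to 2364 counts in WT and 713 to 778 counts in *Hint1*-/- samples, so the targeted gene matched the labels, although counts remained.

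The promoters of *Prkca* and *Prkcd* are shown because these were the PKC genes that passed the test, in opposite directions, and because HINT1 is studied as a cofactor of transcription factors such as TFAP2A (AP-2α), USF2, and MITF. Each run is the plus sense of the gene, 5′ to 3′, from 250 to 51 bases before the RefSeq start, on build GRCm38.p6, which is the same assembly as mm10. *Prkca* lies at chr11:107933387-108343928 on the minus strand, and its window is chr11:108343939-108344138. *Prkcd* lies at chr14:30595354-30626210 on the minus strand, and the window of the outer of its 2 listed starts is chr14:30626259-30626458. Capitals mark matches, on either strand, to the AP-2 motif GCCNNNGGC, the E-box CACGTG bound by USF and MITF factors, and the GC box GGGCGG.
Prkca: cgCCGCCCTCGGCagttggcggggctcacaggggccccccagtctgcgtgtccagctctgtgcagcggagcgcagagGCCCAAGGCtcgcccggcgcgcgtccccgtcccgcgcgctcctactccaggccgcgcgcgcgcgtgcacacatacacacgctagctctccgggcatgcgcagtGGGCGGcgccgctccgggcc
Prkcd: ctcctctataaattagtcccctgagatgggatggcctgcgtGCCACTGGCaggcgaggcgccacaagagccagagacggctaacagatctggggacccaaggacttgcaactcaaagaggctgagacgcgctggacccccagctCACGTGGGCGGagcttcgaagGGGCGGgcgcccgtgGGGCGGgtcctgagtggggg
The *Prkca* window held 2 AP-2 matches and 2 GC boxes, and in its first capital run a GC box and an AP-2 match overlap. The *Prkcd* window held 1 AP-2 match, 1 E-box, and 3 GC boxes, and the E-box shares a base with a GC box. Of 32841 promoter windows of the same 200 bases, 10.6% held the AP-2 motif, 4.34% the E-box, and 24.6% the GC box. Both windows are rich in G and C (76.5% in *Prkca* and 65.0% in *Prkcd*). The AP-1 element TGACTCA, through which phorbol esters act downstream of PKC, was in neither window and in 3.61% of all windows. RefSeq promoters were matched for 6 of the 8 PKC genes, and those of *Prkce* and *Prkch* are not shown. The AP-2 motif was also in the window of *Prkcq*, which was not tested, and of 1 start of *Prkcz*, which did not pass. Each of the 6 genes had a GC box in at least 1 window. The window of the other listed *Prkcd* start held none of these motifs. A match of letters is a description of the sequence and does not show binding.

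*Prkcd*, which encodes PKCδ, an nPKC isoform abundant in many cell types including myeloid cells, was the PKC gene with the most counts. It was counted 1956, 1945, 1929, and 1978 times in WT replicates 1, 2, 3, and 4 and 1736, 1823, 1793, and 1839 times in *Hint1*-/- replicates 1, 2, 3, and 4. The genotypes did not overlap, and *Hint1*-/- replicate 1 was the lowest of the 8 samples. WT MASMCs averaged 93.4 ± 1.14 CPM and *Hint1*-/- MASMCs 86.7 ± 2.20 CPM (mean ± SD, 4 samples each), where CPM stands for estimated counts scaled to library size with edgeR's TMM factors. EdgeR's quasi-likelihood test gave a log2 fold change of −0.11 ± 0.033 SE and an adjusted p of 0.0250. This call rested on single samples. The adjusted p of the same edgeR test rose to 0.0555 or 0.0615 when WT replicate 1 or 4 was left out, and to 0.0903 or 0.0543 when *Hint1*-/- replicate 1 or 3 was left out.

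*Prkca*, which encodes the conventional isoform PKCα, was counted 1302, 1370, 1368, and 1370 times in the WT replicates and 1494, 1499, 1500, and 1529 times in the *Hint1*-/- replicates. Here too the genotypes were apart, and WT replicate 1 was the lowest. The level rose from 64.7 ± 1.51 CPM to 72.6 ± 0.738 CPM (mean ± SD, 4 samples each), a log2 fold change of 0.17 ± 0.0337 SE (edgeR adjusted p = 0.00142). Over the 17 alternatives the log2 fold change lay between 0.15 and 0.17 and the adjusted p between 0.00138 and 0.00712, so no alternative ended the call. *Prkca* shares chromosome 11 with *Hint1*, at a distance of 53.1 Mb. Within each library, the ratio of *Prkca* to *Prkcd* counts was 0.666 to 0.709 in WT and 0.822 to 0.861 in *Hint1*-/- samples, which is free of any scaling between libraries and was not tested, since the pair was chosen after its values were seen.

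**Figure D1:**
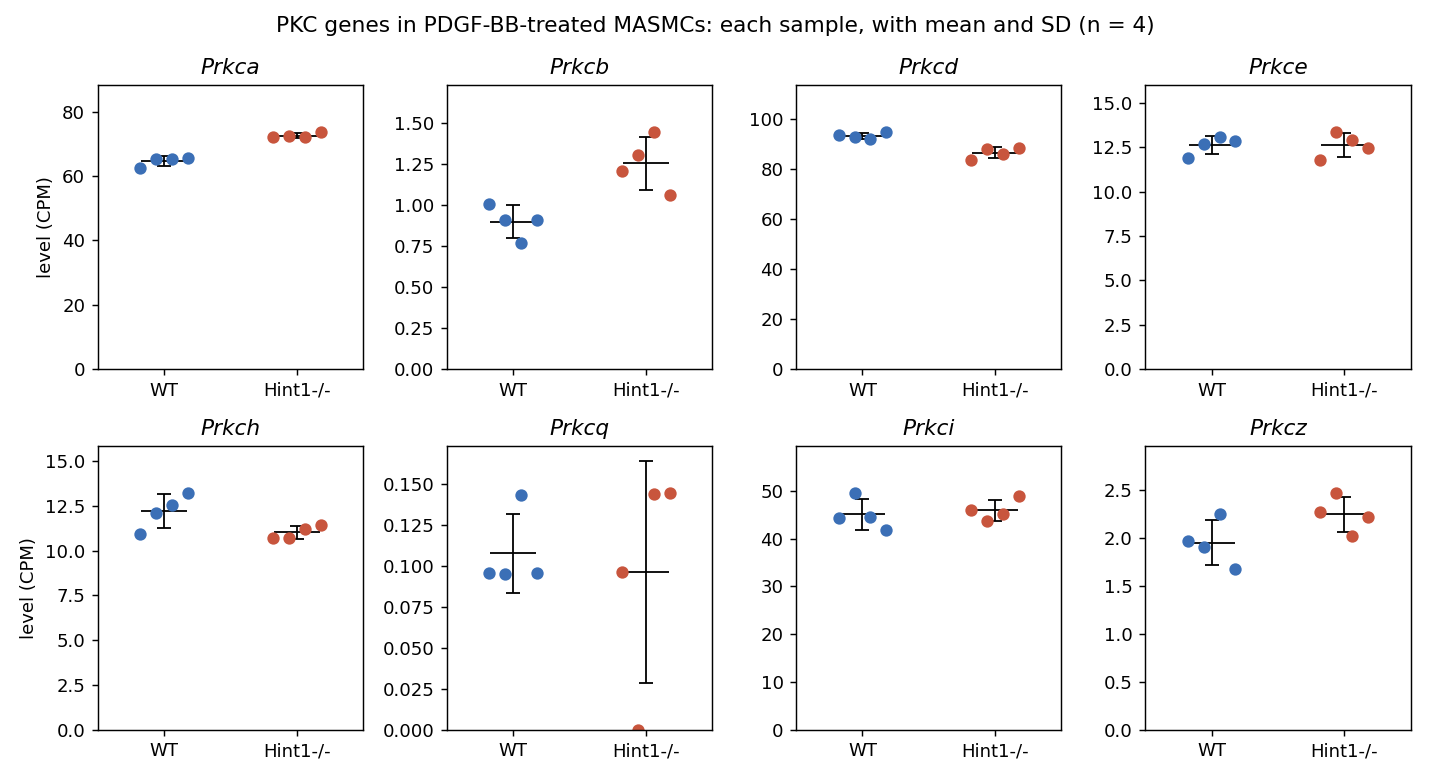
Level of each PKC gene in CPM (y axes from 0, scaled separately) in the 4 WT and 4 *Hint1*-/- samples, with bars for the mean and SD. *Prkca*, *Prkcb*, and *Prkcd* show no overlap between the genotypes, and *Prkcq* stays under 0.15 CPM in every sample.

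*Prkcb*, which encodes PKCβ and is a major isoform of B lymphocytes and myeloid cells, is the isoform the study's discussion links to HINT1 in heart muscle. It was barely present. Its counts were 21, 19, 16, and 19 in WT replicates 1 to 4 and 25, 27, 30, and 22 in *Hint1*-/- replicates 1 to 4. All *Hint1*-/- samples lay above all WT samples, although the nearest values were 21 and 22 counts. The level was 0.897 ± 0.0997 CPM against 1.25 ± 0.161 CPM (mean ± SD, 4 samples each), and the log2 fold change of 0.48 ± 0.206 SE did not pass edgeR's test (adjusted p = 0.110). The 95% interval of this difference, not adjusted for the number of genes, ran from 0.05 to 0.91 on the log2 scale, which includes values past the fold limit and values near 0, so this depth cannot tell them apart. The estimated counts of *Prkcb* were fractional in all 8 samples, which happens when reads that fit more than 1 place are divided. Those of *Prkce* were also fractional in all 8 samples, those of *Prkca* in 4, and those of *Prkch* in 1. The counts are per gene symbol, so the splice forms PKCβ1 and PKCβ2 are not separated.

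The genotypes of 3 of the 7 tested PKC genes did not overlap, namely *Prkca*, *Prkcb*, and *Prkcd*, where 23% of all genes tested showed no overlap.

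Of the other nPKC isoforms, *Prkch*, which encodes PKCη, had 228, 254, 262, and 276 counts in WT and 222, 222, 233, and 238 counts in *Hint1*-/- samples. Its ranges overlapped through WT replicate 1. The log2 fold change was −0.15 ± 0.0705 SE (edgeR adjusted p = 0.160, 95% interval −0.29 to 0.00). *Prkce*, which encodes PKCε, had 248 to 274 counts in WT and 244 to 276 counts in *Hint1*-/- samples, and its log2 fold change was 0.00 (95% interval −0.14 to 0.13, adjusted p = 0.984 in edgeR's test). Its samples were fully interleaved between the genotypes. *Prkcq*, which encodes PKCθ, the isoform of T lymphocytes and skeletal muscle, was counted at most 3 times in any sample and failed the filter. Pooled over 4 libraries each, it had 9 counts in WT and 8 counts in *Hint1*-/- samples, a ratio of 0.888 with a 95% exact (Clopper-Pearson) interval of 0.298 to 2.59 that covers counting error only.

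Neither atypical isoform passed the test. *Prkci*, which encodes PKCι, a partner of the PAR3/PAR6 polarity complex, had 874 to 1040 counts in WT and 903 to 1016 counts in *Hint1*-/- samples. The *Hint1*-/- range lay wholly inside the WT range, and the log2 fold change was 0.03 (95% interval −0.08 to 0.13, adjusted p = 0.747 in edgeR's test). *Prkcz*, which encodes PKCζ, had 41, 40, 47, and 35 counts in WT and 47, 51, 42, and 46 counts in *Hint1*-/- samples. Its fitted log2 fold change was 0.20 with an interval of −0.12 to 0.53 (adjusted p = 0.401 in edgeR's test), and the genotypes overlapped.

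**Figure D2:**
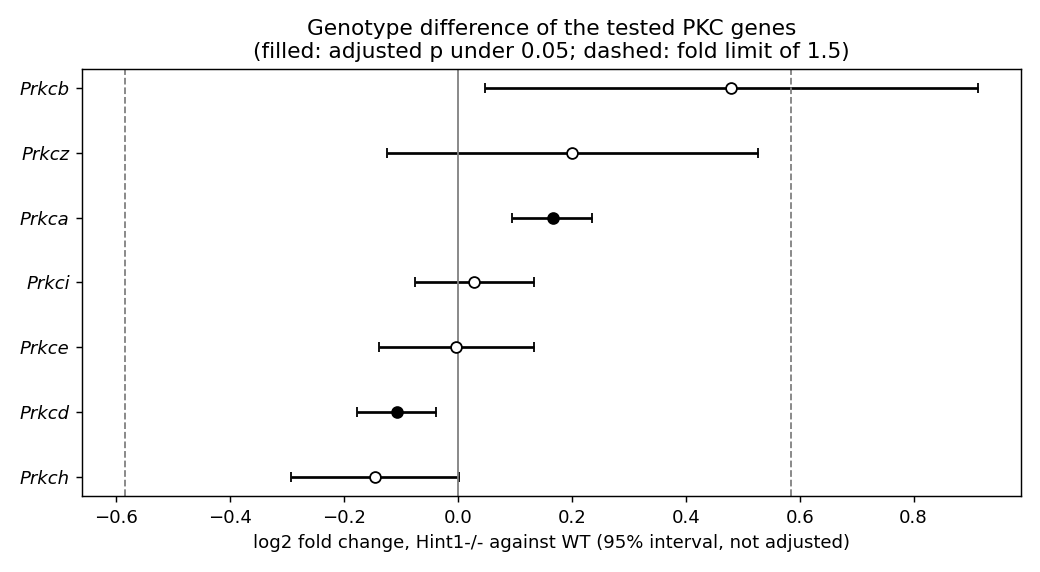
Log2 fold change of *Hint1*-/- against WT (x axis) for the 7 PKC genes tested by edgeR, with 95% intervals that are not adjusted for the number of genes. Filled points, *Prkca* at 0.17 and *Prkcd* at −0.11, had an adjusted p under 0.05, and no point lies beyond the dashed lines at a fold of 1.5, although the interval of *Prkcb* crosses the right one.

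Levels of different genes can be set side by side only per length, so CPM was divided by the length of the union of each gene's annotated exons in kb. In WT MASMCs, *Prkcd* led with 16.8 ± 0.206 CPM per kb, followed by *Prkci* with 8.12 ± 0.582 and *Prkca* with 7.19 ± 0.168 CPM per kb (SD, n = 4). *Prkce* at 1.74 ± 0.0718 and *Prkch* at 1.62 ± 0.127 CPM per kb came next, and *Prkcz* at 0.308 ± 0.0371, *Prkcb* at 0.117 ± 0.013, and *Prkcq* at 0.0152 ± 0.00337 CPM per kb were lowest. The samples of *Prkce* and *Prkch* overlapped in WT, and every other pair of neighbours in this order was separated in all 4 samples. The order was the same in *Hint1*-/- MASMCs, where *Prkci* at 8.28 ± 0.401 and *Prkca* at 8.07 ± 0.0818 CPM per kb (SD, n = 4) overlapped and *Prkce* and *Prkch* did not.

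*Prkcd*, *Prkci*, and *Prkca*, 1 isoform of each class, together held 89.0% to 90.0% of the summed PKC level per kb in WT and 89.3% to 89.8% in *Hint1*-/- samples. The summed level of the 8 genes was 35.4 to 36.7 CPM per kb in WT and 35.0 to 36.7 CPM per kb in *Hint1*-/- samples. By class, the conventional share of this sum was 20.0% to 20.7% in WT and 22.7% to 23.4% in *Hint1*-/- samples. The nPKC share was 54.7% to 57.5% against 51.9% to 53.8%, and the atypical share was 21.8% to 25.2% against 23.2% to 25.0%. The conventional share was thus higher and the nPKC share lower in every *Hint1*-/- sample, which follows the values of *Prkca* and *Prkcd*, while the atypical shares overlapped. These sums are descriptions without a test. With the longest annotated transcript as the length, *Prkch* moved above *Prkce* and the nPKC share in WT became 67.9%. *Prkcd* has 5544 bases by the union of its exons and 2851 bases by its longest transcript, where *Prkca* has 8992 and 8409 bases.

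**Figure D3:**
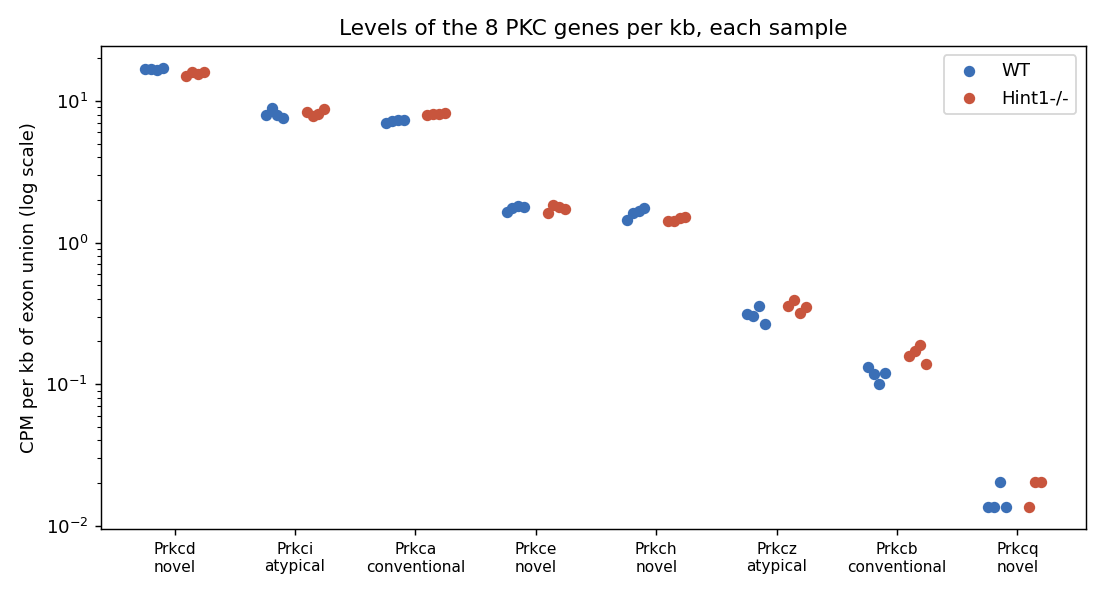
Level per kb of annotated exon (log scale) for the 8 PKC genes, ordered by the WT mean, with 1 point per sample. *Prkcd*, *Prkci*, and *Prkca* lie between 6.94 and 17.1 CPM per kb and the other 5 genes below 1.84 CPM per kb. *Hint1*-/- replicate 2, without a *Prkcq* count, is not drawn for that gene.

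The cultures were checked for the cell types that use these isoforms. Smooth muscle markers were present, with a summed level of 1350 to 1467 CPM over 7 genes in WT and 1116 to 1206 CPM in *Hint1*-/- samples, although *Myocd*, a defining cofactor of smooth muscle, had at most 14 counts in any sample. Macrophage markers were present too, with all 6 of 6 genes detected and a summed level of 1058 to 1178 CPM in WT and 879 to 969 CPM in *Hint1*-/- samples. These sums were not divided by gene length, so they compare the genotypes and not the cell types. *Csf1r*, the receptor on which macrophages depend, stood at 396 ± 21.1 CPM and 305 ± 10.9 CPM in the same order (mean ± SD, 4 samples each). *Cd14*, a coreceptor for bacterial lipopolysaccharide, stood at 403 ± 24.3 CPM and 338 ± 18.1 CPM (mean ± SD, 4 samples each). In edgeR's test, 5 of the 6 markers were lower in *Hint1*-/- samples, namely *Ptprc*, *Adgre1*, *Csf1r*, *Cd14*, and *Fcgr1*, with log2 fold changes of −0.25 to −0.42. *Itgam* did not pass (log2 fold change −0.04, edgeR adjusted p = 0.523), and the median of the 6 was −0.34. Across all genes tested, 10.2% were lower. In bulk RNA, fewer cells of a type and less RNA per cell cannot be told apart.

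Both *Prkcd* and the summed macrophage markers were lower in *Hint1*-/- samples, and so were the summed smooth muscle and Schwann cell markers. The fitted *Prkcd* difference of −0.11 on the log2 scale was smaller in size than those of the 5 lower macrophage markers. It was larger in size than that of the macrophage marker *Itgam* (−0.04), and these contrasts were not tested. The *Prkcd* level per 100 CPM of summed macrophage markers was 8.05 to 8.87 CPM in WT and 8.89 to 9.68 CPM in *Hint1*-/- samples. *Prkch*, which did not pass the test, stood at 1.03 to 1.13 CPM per 100 CPM of these markers in WT and 1.14 to 1.25 CPM in *Hint1*-/- samples. Since the summed markers were lower in *Hint1*-/- samples, any gene that fell by a smaller share than they did has a higher ratio there by arithmetic alone. The part of the macrophage markers in the *Prkcd* result was not tested. Markers of T lymphocytes, which use *Prkcq*, and of B lymphocytes, which like myeloid cells use *Prkcb*, were near 0. The 4 T cell genes found in the files summed to at most 1.02 CPM and the only B cell gene found, *Cd79a*, to at most 0.193 CPM in any sample.

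Other marker lists also differed between the genotypes, where 11.2% of all genes tested were higher and 10.2% were lower. Fibroblast markers summed to 1446 to 1562 CPM in WT and 2412 to 2536 CPM in *Hint1*-/- samples, with 3 of 5 higher and 1 lower. Schwann cell markers summed to 56.0 to 61.1 CPM and 23.2 to 26.1 CPM, with 4 of 6 lower. Cardiac muscle markers summed to 1.77 to 2.59 CPM and 6.79 to 11.1 CPM, with 4 of 5 tested higher. Endothelial markers, at most 7.08 CPM, had none of 4 tested past the test, and skeletal muscle markers, at most 1.16 CPM, were too low to test. The part of these differences in the PKC values was not tested.

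**Figure D4:**
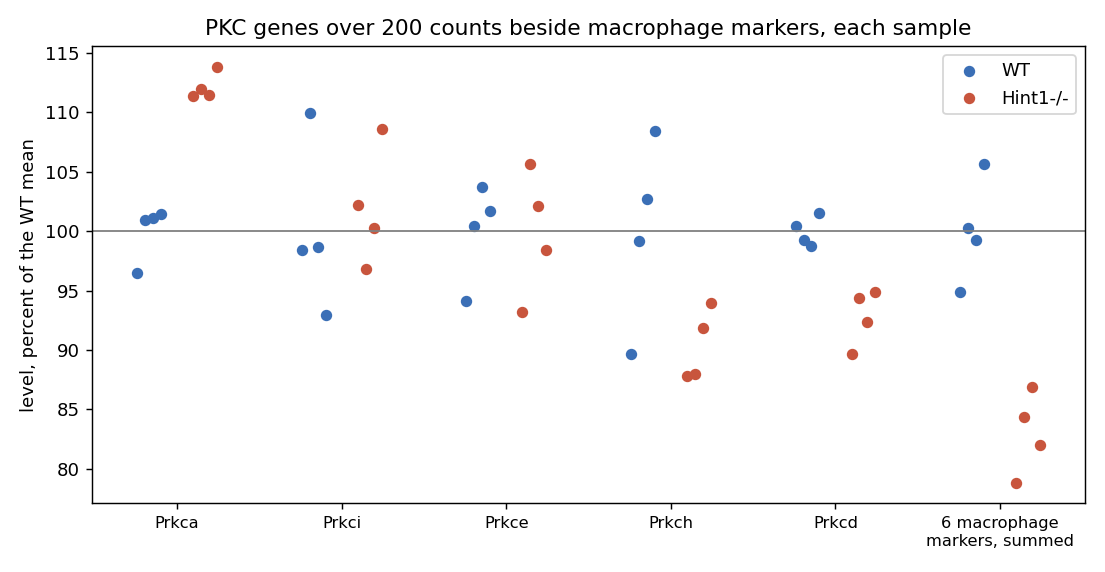
Level in each sample as a percent of the WT mean (y axis, which does not start at 0) for the 5 PKC genes with more than 200 counts per sample and for the sum of 6 macrophage markers. *Prkca* lies above and *Prkcd* and the macrophage markers lie below their WT samples in all 4 *Hint1*-/- samples, whereas *Prkci*, *Prkce*, and *Prkch* overlap.

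Genes around PKC were described by role, in 9 lists, with the same edgeR test. Over these lists, 29 of the 82 tested genes passed, with 12 higher and 17 lower, against 21.5% of all genes. *Hint1*, the deleted gene, is 1 of the 17. The lists were chosen with earlier results of these data known, so this share is a description and was not tested against the background. Among all genes tested, 11.2% were higher and 10.2% were lower. The counts given for each list below are to be read beside these shares.

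Among 6 kinases related to PKC, *Prkd1* and *Prkd2* were higher, and the other 4, *Prkd3*, *Pkn2*, and *Pkn3* among them, did not pass. *Prkd1* encodes protein kinase D1, a diacylglycerol-binding kinase that PKC activates. It had 236 to 265 counts in WT and 265 to 327 counts in *Hint1*-/- samples, a log2 fold change of 0.28 ± 0.0736 SE (edgeR adjusted p = 0.0112). *Prkd2*, of the same family, had a log2 fold change of 0.18 (adjusted p = 0.0154 in edgeR's test), which rose to an adjusted p of 0.0548 without WT replicate 4 and 0.0571 without *Hint1*-/- replicate 4.

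Of 14 tested genes listed around the supply of diacylglycerol, not all of which make it, 3 were higher and 3 were lower. Across all genes tested, 21.5% passed in either direction. The median log2 fold change of the list was 0.05. The Gq-coupled phospholipases *Plcb1* and *Plcb4* rose by 0.51 (SE 0.110) and 0.27 (SE 0.0456) on the log2 scale, with adjusted p values of 0.00240 and 0.000219 in edgeR's test. *Plcb1* had 89 to 126 counts in WT and 129 to 162 counts in *Hint1*-/- samples. *Pld2*, a phospholipase D that makes phosphatidic acid, was also higher (log2 fold change 0.16). *Plcg2*, the phospholipase Cγ of blood cells, was lower, from 1069 to 1264 counts in WT to between 903 and 982 counts in *Hint1*-/- samples (log2 fold change −0.29, SE 0.0491, adjusted p = 0.000233 in edgeR's test). *Plcb2*, also a blood-cell enzyme, was lower at −0.24 on the log2 scale. *Plcl2*, a relative without phospholipase activity, was lower at −0.21 and lost its call under DESeq2 (adjusted p = 0.147). It also lost it without WT replicate 1, 3, or 4 (0.0706, 0.0538, and 0.0766 in edgeR's test) and without *Hint1*-/- replicate 1, 3, or 4 (0.0812, 0.0543, and 0.0707). *Plcg1*, the phospholipase Cγ that PDGF receptors engage, had 685 to 736 counts in WT and 726 to 845 counts in *Hint1*-/- samples and did not pass (log2 fold change 0.15, adjusted p = 0.0506 in edgeR's test).

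Diacylglycerol kinases end the signal by converting diacylglycerol to phosphatidic acid. Of 8 tested, 3 were lower and none was higher in edgeR's test, where 10.2% of all genes tested were lower. The median log2 fold change was −0.05. *Dgkz* fell from 130 ± 5.31 CPM to 116 ± 4.78 CPM (mean ± SD, 4 samples each), a log2 fold change of −0.18 ± 0.0383 SE (edgeR adjusted p = 0.00258). *Dgka* fell from between 276 and 301 counts to between 203 and 265 counts (log2 fold change −0.34, SE 0.0755, adjusted p = 0.00333 in edgeR's test). *Dgkg*, with 24 to 37 counts in WT and 14 to 22 counts in *Hint1*-/- samples, was past both limits at −0.71 (adjusted p = 0.0280 in edgeR's test). The call for *Dgkg* was lost under DESeq2 (adjusted p = 0.102), without WT replicate 1 or 3 (0.107 and 0.0602 in edgeR's test), and without *Hint1*-/- replicate 1, 3, or 4 (0.0738, 0.0836, and 0.0587).

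Of 8 tested genes for other proteins with a diacylglycerol-binding domain, 1 was higher and 1 was lower. *Rasgrp3*, a Ras activator recruited by diacylglycerol, had 967, 1046, 996, and 1168 counts in WT and 703, 761, 775, and 796 counts in *Hint1*-/- samples. Its highest *Hint1*-/- count was under its lowest WT count, at a log2 fold change of −0.45 ± 0.0549 SE (edgeR adjusted p = 6.92e-06). *Unc13a*, a vesicle-priming protein, had 49 to 70 counts in WT and 76 to 95 counts in *Hint1*-/- samples, a log2 fold change of 0.51 (adjusted p = 0.0131 in edgeR's test, and 0.0513 without *Hint1*-/- replicate 2).

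Of the 8 genes for maturation and dephosphorylation of PKC, *Pdpk1* alone passed. It encodes PDK1, which phosphorylates the activation loop, and its log2 fold change was 0.14 (adjusted p = 0.0245 in edgeR's test). That call was lost under DESeq2 (adjusted p = 0.0704), without WT replicate 1 or 4 (0.0828 and 0.0756 in edgeR's test), and without *Hint1*-/- replicate 4 (0.0875). The mTORC2 subunits *Mtor*, *Rictor*, *Mapkap1*, and *Mlst8* and the phosphatases *Phlpp1* and *Phlpp2*, which set the carboxy-terminal phosphorylation, did not pass.

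Among 9 anchors and binding proteins, which include *Hint1*, 1 was higher and 3 were lower. *Akap5*, an anchor for PKC and PKA, had 59, 37, 33, and 37 counts in WT and 16, 18, 13, and 14 counts in *Hint1*-/- samples, a log2 fold change of −1.43 ± 0.234 SE (edgeR adjusted p = 0.000188). WT replicate 1 was the highest, and without it the log2 fold change was −1.21. *Akap12* (gravin), an anchor with many more counts, fell from 170 ± 6.49 CPM to 144 ± 3.74 CPM (mean ± SD, 4 samples each), a log2 fold change of −0.24 (adjusted p = 6.85e-05 in edgeR's test). *Cavin2*, a caveolar protein that binds PKCα, rose from 112 ± 11.7 CPM to 168 ± 3.71 CPM (mean ± SD, 4 samples each). Its log2 fold change of 0.58 ± 0.0531 SE (edgeR adjusted p = 2.22e-07) lay just inside the fold limit, and it was past the limit without WT replicate 1 or 2 (0.60 and 0.63) and without *Hint1*-/- replicate 2 or 3 (0.59 and 0.59). *Rack1*, the receptor for activated C kinase, had 15789 to 17973 counts in WT and 16061 to 16735 counts in *Hint1*-/- samples and did not pass (log2 fold change −0.06).

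Of 11 genes for polarity partners of the atypical isoforms, 1 was higher and 2 were lower. *Pard3*, the scaffold PAR3, had a log2 fold change of 0.17 ± 0.0380 SE (edgeR adjusted p = 0.00294). *Sqstm1* (p62), which binds atypical PKC and is also an autophagy receptor, fell from 910 ± 21.9 CPM to 773 ± 15.8 CPM (mean ± SD, 4 samples each), a log2 fold change of −0.24 (adjusted p = 2.12e-05 in edgeR's test). *Cdc42*, a small GTPase of the complex, passed barely (log2 fold change −0.09, adjusted p = 0.0487 in edgeR's test) and lost its call in 9 of 17 alternatives. It was lost without any 1 of 7 samples (edgeR adjusted p from 0.0644 to 0.129) and kept without WT replicate 4.

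Among the lists around PKC, substrates had the largest share of genes that passed, 7 of 12 tested, against 21.5% of all genes. Of these, 2 were higher and 5 were lower, and the median log2 fold change of the list was −0.08. Marker lists had larger shares, such as 83.3% of the macrophage and of the smooth muscle markers tested. *Ppp1r14a* encodes CPI-17, the smooth muscle phosphatase inhibitor that PKC switches on. It had 233, 180, 205, and 187 counts in WT and 139, 130, 163, and 162 counts in *Hint1*-/- samples. The genotypes were apart, and the log2 fold change was −0.43 ± 0.0978 SE (edgeR adjusted p = 0.00378). Smooth muscle markers were lower too, 4 of 6 tested, among them *Acta2* (smooth muscle actin) at −0.52 and *Myh11* (smooth muscle myosin) at −1.55 on the log2 scale. *Smtn* (smoothelin) was higher at 0.25, and *Tagln* (SM22α) at −0.11 did not pass (edgeR adjusted p = 0.0696). The part of these markers in the *Ppp1r14a* result was not tested. *Ppp1r14c*, a relative with the same type of inhibitory domain, was lower at −1.15 with 5 to 21 counts per sample (adjusted p = 0.0101 in edgeR's test). *Gap43*, a substrate of growing neurites, had 40 to 54 counts in WT and 21 to 34 counts in *Hint1*-/- samples (log2 fold change −0.85, SE 0.191, adjusted p = 0.00343 in edgeR's test).

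*Plek* (pleckstrin), the classical PKC substrate of platelets and leukocytes, fell from 330 ± 30.2 CPM to 274 ± 16.5 CPM (mean ± SD, 4 samples each), a log2 fold change of −0.27 (adjusted p = 0.00125 in edgeR's test). *Add3*, an adducin of the membrane skeleton, rose from 35.7 ± 1.43 CPM to 45.0 ± 1.42 CPM (mean ± SD, 4 samples each), or 0.34 on the log2 scale (adjusted p = 1.06e-05 in edgeR's test). The myristoylated substrates diverged. *Marcks*, the textbook PKC substrate, rose by 0.26 ± 0.0436 SE (edgeR adjusted p = 0.000252), and its relative *Marcksl1* fell by 0.24 on the log2 scale (SE 0.0408, adjusted p = 0.000268). *Marcks* had 3064 to 3535 counts in WT and 3773 to 4200 counts in *Hint1*-/- samples, while *Marcksl1* had 3485 to 3786 and 2828 to 3265 counts.

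*Plcb2*, *Plcg2*, *Dgka*, *Rasgrp3*, and *Plek*, which blood cells also express, had log2 fold changes of −0.24 to −0.45, where the 5 lower macrophage markers had −0.25 to −0.42. These genes were picked after their values were seen, and other genes of blood cells did not follow them. *Prkcb* (0.48), *Rasgrp2* (0.26), *Rasgrp4* (−0.12), and the macrophage marker *Itgam* (−0.04) did not pass. The part of the macrophage markers in these values was not tested.

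The study's discussion states that HINT1 in cardiomyocytes binds PKCβ1, inhibits its activation, and lowers HOXA5 expression by a route through MEK, ERK, and YY1. The mRNA levels here do not measure binding or kinase activity. Of the 6 genes listed for this route, *Map2k1*, which encodes MEK1, alone passed, rising from 222 ± 2.81 CPM to 256 ± 4.58 CPM (mean ± SD, 4 samples each), a log2 fold change of 0.20 ± 0.0303 SE (edgeR adjusted p = 7.95e-05). *Map2k2*, *Mapk3*, and *Yy1* had log2 fold changes between −0.02 and 0.03 and did not pass. *Hoxa5* had 342 to 447 counts in WT and 345 to 376 counts in *Hint1*-/- samples, a log2 fold change of −0.09 (adjusted p = 0.456 in edgeR's test).

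**Figure D5:**
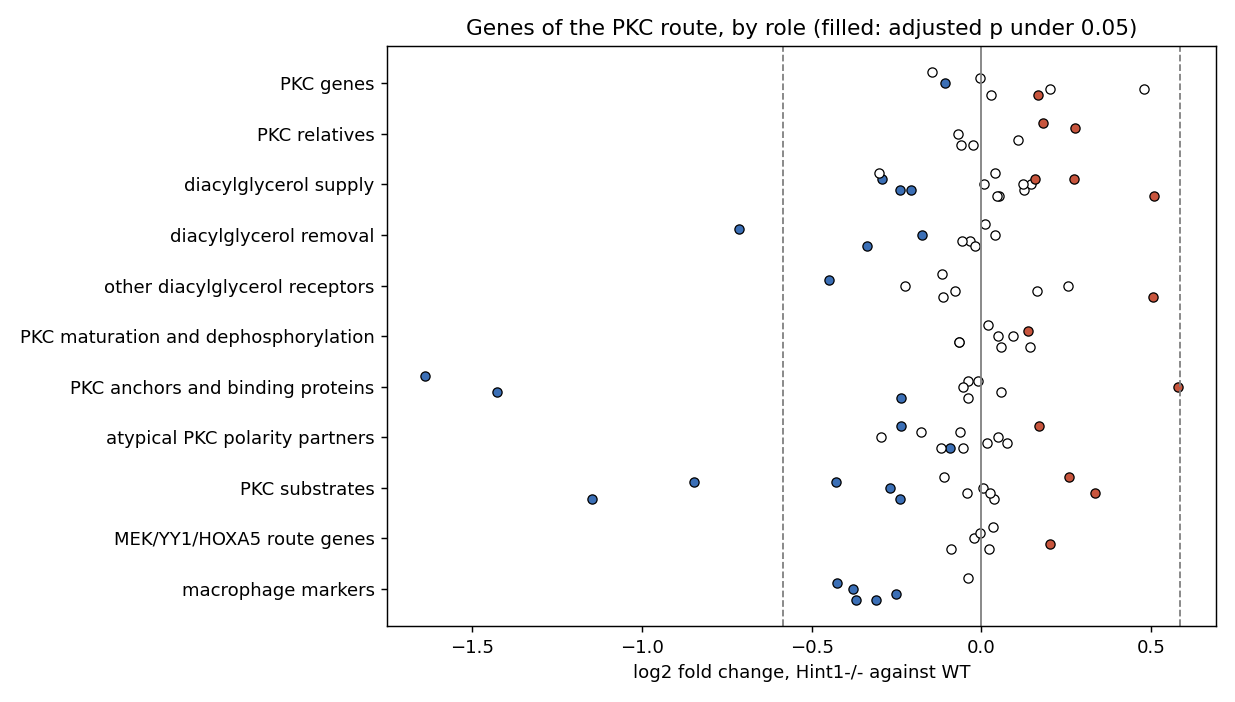
Log2 fold change of *Hint1*-/- against WT (x axis) for each tested gene of the PKC lists and of the macrophage markers (rows), with filled points for an adjusted p under 0.05 in edgeR's test and dashed lines at a fold of 1.5. Among the PKC genes 2 points are filled, the leftmost point is *Hint1* at −1.64, and 5 of 6 macrophage markers are filled on the left.

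The genes with a profile most like that of *Prkca* over the 8 samples, by the root mean square difference of mean-centred log2 CPM among 11848 genes, were *Anxa3* (0.0212), *Dnajc5* (0.0227), and *Dusp16* (0.0232), where the median gene differed by 0.116. *Anxa3* encodes a calcium-dependent phospholipid-binding annexin, *Dnajc5* a chaperone of vesicles, and *Dusp16* a phosphatase of MAP kinases. Their log2 fold changes were 0.15, 0.14, and 0.17, and values near that of *Prkca* follow from choosing genes by its profile.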

How the data were processed

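RNA from 8 samples was sequenced as 50-base reads and mapped to mm10. The authors deposited an estimated count per gene symbol and sample, without normalization, made from the mapped reads. The paper's methods name HISAT2, and the submitters' processing notes name Bowtie2 and RSEM 1.3.1. The gene annotation is not given in the sources used here. RSEM divides reads that fit several genes, so isoforms with similar sequence can exchange a few reads, and reads from overlapping antisense genes are not separated unless strand was used, which is not stated.

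Counts were rounded, filtered with filterByExpr, scaled by TMM, and compared between genotypes with edgeR 4.0.16 (glmQLFit, glmQLFTest, two-sided, genotype as the only term), with Benjamini-Hochberg adjustment over 13535 genes. A gene passed at an adjusted p under 0.05, and the study's fold limit of 1.5 was a second, stricter call. SEs are the log2 fold change divided by the square root of F. R 4.3.3, limma 3.58.1, DESeq2 1.42.0, and Python 3.11.15 were used, and the pipeline was tested on simulated data. Log2 CPM used a prior count of 2. Depth was even, so precision depends on each gene's count and on its spread between samples, and count intervals cover counting error only. Pairs of replicates differed by more than sampling noise (chi-square per gene 2.1 to 5.48), so none was treated as a repeat deposit of another, which does not show that they came from separate mice.

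The members and lists were chosen with earlier results of these data known. Named genes were the 8 PKC genes, *Hint1*, list members past both limits, the 3 largest changes per list that passed and averaged 50 counts or more, and the 3 nearest profiles to the PKC gene that changed most among those averaging 50 counts or more. *Plcb2*, *Plcl2*, *Pld2*, *Marcks*, *Marcksl1*, the markers of cell types, and the genes named as not passing were chosen after their values were seen. The results of a few genes are not reported here. Gene lengths and positions came from GENCODE M21 and promoters from RefSeq (GRCm38.p6). Protein sequences were not used here. Alternatives were other normalizations (DESeq2 size factors, upper quartile, library total), no filter or at least 10 counts in every sample, unrounded counts, DESeq2, limma-voom, a block for the replicate number, fits without each sample, and the longest transcript as gene length.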

Additional observations from a re-analysis of the deposited data

Results flagged for a closer look

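For 5 genes, 1 of the 4 samples of a genotype stood apart in log2 CPM, its gap to the nearest sample taking most of the range. For *Prkca* in WT, replicate 1 had 1302 counts where the others had 1368 to 1370, a gap that took 0.891 of the range, and without this sample the log2 fold change was 0.15 (adjusted p = 0.00712 in edgeR's test). For *Prkcq* in WT, replicate 3 had 3 counts against 2 in each of the others (0.986), the smallest step a count can make. For *Add3* in WT, replicate 1 had 700 counts against 759 to 767 (0.932). *Hint1*-/- replicate 4 stood apart for *Pdpk1*, with 1041 counts where the others had at most 979 (0.906), and *Hint1*-/- replicate 3 for *Dusp16*, with 842 counts where the others had 866 to 872 (0.872). Chance marks about 1 in 20 groups in this way, or 4.6 of the 92 groups examined.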

How the results depend on the processing

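The count of PKC genes that passed was 2 in the 9 alternatives that kept all 8 samples, and 1 to 2 with each sample left out. It was 1, with *Prkcd* lost, without WT replicate 1 or 4 and without *Hint1*-/- replicate 1 or 3. No PKC gene passed the fold limit in any of the 17. With samples left out in turn, the log2 fold change of *Prkce* ranged from −0.0305 to 0.0292 and that of *Prkci* from −0.0054 to 0.0771, so neither has a direction. *Prkcb*, *Prkch*, and *Prkcz* kept their direction and did not pass in any alternative (lowest adjusted p 0.0962, 0.0623, and 0.307). Of 645 alternative values for 38 other named genes, 616 kept direction and call, 29 lost the call, and 0 reversed. The 29 genes that passed in the lists became 24 to 30 with a sample left out and 26 under DESeq2. With the longest transcript as length, 6 of the 8 PKC genes kept their rank, and the shares in WT moved from 20.3% to 14.2% (conventional), 56.2% to 67.9% (nPKC), and 23.4% to 17.9% (atypical). With the replicate number as a block, 2 PKC genes and 31 list genes passed. The deviations of samples numbered 1 to 4 correlated by 0.123, 0.306, 0.008, and 0.111 between genotypes, and WT replicates 1 and 2 and *Hint1*-/- replicates 2 and 4 correlated best with their own number. The labels state no shared source and 1 pair was under 0.1, so the samples were not treated as paired, although a shared factor, above all for replicate 2, cannot be dismissed. Counts near 20, as for *Prkcb*, leave differences under the fold limit undetectable.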
